A study of Mus musculus with 9 samples.

Results

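The 9 genes described here encode the receptor subunits, receptor kinases and ligand chains of interleukin 12 (IL-12), IL-23 and the related cytokine IL-27. They were chosen by name: the receptor genes Il23r, Il12rb1, Il12rb2 and Il27ra, the kinase genes Jak2 and Tyk2, and the ligand genes Il12a, Il23a and Ebi3. All 9 were among the 22180 named genes measured, each by the probe set with the highest mean, and Ebi3 alone had a second probe set. RNA came from cultured mouse T cells and was measured on 9 arrays, 3 from wild-type (WT) cells, 3 from SRG3-deficient cells (SRG3 cKO, a conditional knockout) and 3 from RORγt-deficient cells (RORγt KO). SRG3, encoded by Smarcc1, is a central part of the Swi/Snf complex that remodels chromatin, and RORγt is the nuclear receptor that directs Th17 differentiation. Naive CD4 T cells (CD25 negative, CD44 low, CD62L high) were sorted from spleen and grown for 60 h on plates coated with anti-CD3 and anti-CD28, both at 10 µg/ml. All 3 genotypes received the same Th17 mixture of TGF-β1 (1 ng/ml), IL-6 (30 µg/ml as the labels write it) with neutralizing anti-IL-4 and anti-IFN-γ, both at 2 µg/ml, and the mixture listed names neither IL-12 nor IL-23. The strain, age and sex of the mice and the promoter of the Cre recombinase were not given in the sources used here. Each genotype has biological replicates 1 to 3 in the labels, which do not say whether these were separate mice or separate cultures, so the p-values below reflect only the spread among these samples.

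IL-12 and IL-23 share a ligand chain, encoded by Il12b, and a receptor chain, IL-12Rβ1. Each pairs the shared receptor chain with a chain of its own: IL-12Rβ2, whose presence marks cells that can answer IL-12 and take the Th1 path, or IL-23R, which lets Th17 cells answer the cytokine that stabilizes them. The receptors carry the Janus kinases TYK2 and JAK2, and signal mainly through STAT4 after IL-12 and through STAT3 after IL-23. Il23r and Il12rb2 lie next to each other on mouse chromosome 6, with 0 annotated protein-coding genes between them.

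The promoters of these 2 neighbours are shown because their levels moved in opposite directions in RORγt KO cells. Each line gives the 250 bases before the annotated start, 5′ to 3′ along the gene, from RefSeq (build GRCm38.p6). Both genes are on the minus strand, Il23r at chr6:67491856-67492105 and Il12rb2 at chr6:67376189-67376438. Capitals mark matches to the motifs searched.
Il23r: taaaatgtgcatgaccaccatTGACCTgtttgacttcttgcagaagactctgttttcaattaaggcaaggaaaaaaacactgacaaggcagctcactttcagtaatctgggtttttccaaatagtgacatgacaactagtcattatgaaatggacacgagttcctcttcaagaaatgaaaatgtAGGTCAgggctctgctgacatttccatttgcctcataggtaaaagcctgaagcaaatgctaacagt
Il12rb2: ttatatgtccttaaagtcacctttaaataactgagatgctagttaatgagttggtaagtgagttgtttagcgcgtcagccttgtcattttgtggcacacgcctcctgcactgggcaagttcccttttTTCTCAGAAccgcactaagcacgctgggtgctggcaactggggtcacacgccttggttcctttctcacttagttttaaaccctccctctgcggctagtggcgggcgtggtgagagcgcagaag
On both strands 6 motifs were searched: AGGTCA, the core of the element that ROR receptors and many other nuclear receptors bind, TTCNNNGAA (STAT factors), TGANTCA (AP-1 and Batf), TGTGGT (Runx), GGTGTGA (T-box) and TGTTTAC (forkhead). No match overlapped another. The Il23r window held AGGTCA 2 times, once on each strand, with the first bases 229 and 66 before the start. Of 32851 RefSeq promoter windows of this length, 14.0% held AGGTCA at least once and 1.36% at least 2 times. The Il12rb2 window held no AGGTCA and 1 STAT element, starting 123 bases before the start, a motif present in 7.02% of all windows. The other motifs had no match in either window, against 6.75% of all windows for AP-1, 14.0% for Runx, 3.33% for T-box and 3.17% for forkhead. Among the other members with an entry (Jak2, Tyk2, Ebi3 and Il12a with 2 starts) there was 1 match in all, a Runx element before the second Il12a start. Il12rb1, Il27ra and Il23a had no entry. A match is a string of letters and does not show that a protein was bound there.

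Values below are log2 intensities as deposited, and a log2 change is a difference of log2 means, passing or not, estimated with limma in 1 fit of all 9 arrays. That fit did not use the replicate numbers. A gene is written to have risen, fallen or changed only where its Benjamini-Hochberg adjusted p over all 22180 genes was under 0.05. Array medians ran from 7.12 to 7.14, and background was not measured, so a level well under the median of all values (7.13) may hold little specific signal. Smarcc1 stood at 8.47 to 8.79 in SRG3 cKO against 10.13 to 10.39 in WT arrays, a fall of 3.15-fold (limma adjusted p = 0.000207). Of 9 measured CD4 T cell markers, 0 lay below the median of all values in any genotype, and their array mean ran from 10.62 to 10.73 in WT, 10.76 to 10.87 in SRG3 cKO and 10.73 to 10.80 in RORγt KO cells. Their median difference from WT was 0.15 in SRG3 cKO and 0.11 in RORγt KO cells, with 0 passing by limma in any comparison (4, 2 and 3 unadjusted, in SRG3 cKO against WT, RORγt KO against WT and between the knockouts), and the part of this in the results below was not tested. Of 13 myeloid and dendritic cell markers, which mark cells that make IL-12 and IL-23, 9 to 11 lay below it, their array mean ran from 6.64 to 6.66 in WT, 6.63 to 6.67 in SRG3 cKO and 6.69 to 6.70 in RORγt KO cells, and 0 changed in any comparison by limma (0, 4 and 4 at an unadjusted p under 0.05 in SRG3 cKO against WT, RORγt KO against WT and SRG3 cKO against RORγt KO cells). B cell and MHC class II markers (7 measured) had array means of 7.59 to 7.92 and 0 changes by limma (0, 1 and 0 unadjusted). Unadjusted counts, here and below, have no count over all genes beside them to serve as background. Of 10 markers of CD8, NK and γδ T cells, the last of which can carry the IL-23 receptor, only the lectin receptor gene Klrd1 changed. From a mean of 5.96 in WT it was higher in RORγt KO cells at 6.87 (0.91, SE 0.14, limma adjusted p = 0.0202), the list mean was 7.22 to 7.30 in WT and 7.32 to 7.36 in RORγt KO arrays, and the part of such cells in the results below was not tested. Some arrays stood apart on principal component 1 (28.8% of variance): in WT cells array 1 scored -1.38 and arrays 2 and 3 scored -10.5 and -11.8. RORγt KO array 3 scored 3.22, with 9.82 and 12 for its group, and SRG3 cKO array 1 scored 3.98, with -3.27 and -2.06 for its group. In RNA from whole cultures, fewer cells of a type and less RNA per cell cannot be told apart.

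Il23r, the receptor chain particular to IL-23, was highest in WT cells, lower in SRG3 cKO cells and lowest in RORγt KO cells. Its log2 level was 10.26, 10.21 and 10.24 in the WT arrays (mean 10.24 ± 0.02 SD, n = 3). SRG3 cKO cells had levels of 9.29, 9.22 and 9.56 (9.36 ± 0.18), and RORγt KO cells of 7.63, 7.95 and 7.25 (7.61 ± 0.35). The 3 groups did not overlap anywhere in this order, and the arrays spread more as the mean fell. RORγt KO array 2 was the highest of its group and array 3 the lowest.

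Against WT, the fall of Il23r was 1.85-fold in SRG3 cKO cells (difference of -0.88, 95% interval -1.22 to -0.55, limma adjusted p = 0.0451) and 6.2-fold in RORγt KO cells (-2.63, -2.97 to -2.30, limma adjusted p = 0.000143). The second of these was the 2nd largest fall of all genes tested in that comparison, and the first the 7th largest in its own. The genotypes were also compared directly: Il23r was 3.36-fold higher in SRG3 cKO than in RORγt KO cells (1.75, 1.41 to 2.09, limma adjusted p = 0.000679), the largest rise of all genes in that direction. The RORγt KO mean still lay above the median of all values. The fall in SRG3 cKO cells was near the threshold. With the replicate number as a block it had a limma adjusted p = 0.0552 in 9 arrays and 0.0427 in the 6 arrays compared. When each of the 9 arrays was left out in turn it passed 2 times, without RORγt KO array 2 or 3. It did not pass without WT array 1, 2 or 3 (adjusted p = 0.0861, 0.154 and 0.179), SRG3 cKO array 1, 2 or 3 (0.167, 0.145 and 0.0943) or RORγt KO array 1 (0.0909), with log2 differences of -0.99 to -0.82 throughout.

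Il12rb2, the receptor chain that IL-12 uses and IL-23 does not, was highest in the RORγt KO cells. Its log2 level was 11.49, 11.59 and 11.32 in RORγt KO arrays (11.47 ± 0.14 SD, n = 3), 10.19, 9.98 and 9.86 in WT arrays (10.01 ± 0.17) and 10.45, 10.10 and 10.21 in SRG3 cKO arrays (10.25 ± 0.18). Every RORγt KO array lay above the 6 others, while the WT and SRG3 cKO arrays overlapped: WT array 1 was above SRG3 cKO array 2. Il12rb2 rose 2.75-fold in RORγt KO cells against WT (1.46, 1.21 to 1.71, limma adjusted p = 0.000382), where it was the largest rise of all genes tested. In SRG3 cKO cells it was at 0.24 against WT (-0.00 to 0.49, limma adjusted p = 0.448), so that the interval ran from no change to 1.41-fold higher. Directly compared, Il12rb2 was 2.32-fold lower in SRG3 cKO than in RORγt KO cells (-1.22, -1.46 to -0.97, limma adjusted p = 0.000772).

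Il12rb1, the chain shared by both receptors, stood at 9.58, 9.61 and 9.55 in WT arrays and 9.57, 9.57 and 9.53 in SRG3 cKO arrays, and at 9.19, 9.36 and 9.18 in RORγt KO arrays. All 3 RORγt KO arrays were below the other 6, whose levels spanned less than 0.1. Il12rb1 fell 1.26-fold in RORγt KO cells against WT (-0.34, -0.45 to -0.22, limma adjusted p = 0.022) and was 1.24-fold higher in SRG3 cKO than in RORγt KO cells (0.32, 0.20 to 0.43, limma adjusted p = 0.0208). In SRG3 cKO against WT it was at -0.02, with an interval of -0.14 to 0.10 that leaves room for little more than a 1.1-fold change. Both calls were lost in fits of only the 6 arrays compared (adjusted p = 0.113 and 0.0838). The fall against WT did not pass without WT array 2 or 3 (adjusted p = 0.109 and 0.0682) or RORγt KO array 1 or 3 (0.0932 and 0.06), and the direct difference passed in 4 of 9 such fits, those without a WT array or RORγt KO array 2.

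Il27ra, the chain that recognizes IL-27 together with the gp130 chain, stayed close to 1 level, at 9.70, 9.57 and 9.59 in WT, 9.85, 9.67 and 9.66 in SRG3 cKO and 9.72, 9.63 and 9.68 in RORγt KO arrays. Array 1 was the highest of each group. No comparison passed: the log2 difference was 0.11 in SRG3 cKO (-0.02 to 0.24) and 0.06 in RORγt KO cells against WT (-0.08 to 0.19), and 0.05 between the knockouts (-0.08 to 0.19). Each interval stays within 1.2-fold of no change.

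**Figure D1:**
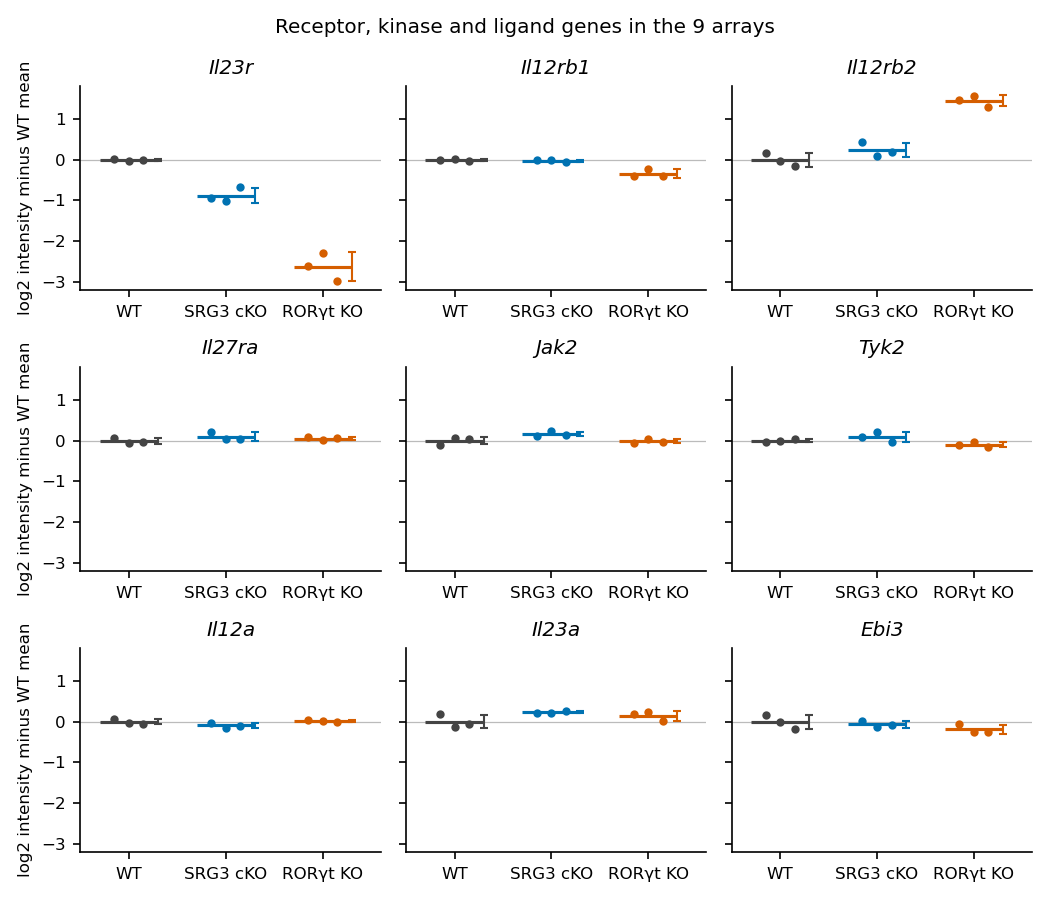
Log2 intensity of each gene minus its WT mean (vertical axis, the same in all panels) in WT, SRG3 cKO and RORγt KO arrays; each point is an array, the horizontal line the mean of 3 arrays and the vertical bar ± 1 SD. Il23r steps down from WT to SRG3 cKO to RORγt KO cells, Il12rb2 is high in the RORγt KO arrays, Il12rb1 is slightly low there, and the other 6 genes lie within 0.3 of their WT mean in every array.

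The kinases that sit on these receptors passed in no comparison. Jak2, which pairs with IL-12Rβ2 and IL-23R, was at 11.54, 11.70 and 11.69 in WT arrays, 11.77, 11.88 and 11.78 in SRG3 cKO arrays and 11.58, 11.68 and 11.62 in RORγt KO arrays. The SRG3 cKO arrays were all above the 6 others. The differences were 0.17 against WT (0.04 to 0.29, limma adjusted p = 0.3) and 0.18 against RORγt KO cells (0.06 to 0.30, limma adjusted p = 0.234), and neither passed. RORγt KO cells were at -0.01 against WT (-0.14 to 0.11). Tyk2, the kinase on the shared chain, was at 8.19, 8.21 and 8.27 in WT, 8.31, 8.44 and 8.20 in SRG3 cKO and 8.11, 8.20 and 8.08 in RORγt KO arrays, with overlap between all groups. Its largest difference was 0.18 between SRG3 cKO and RORγt KO cells (0.05 to 0.32, limma adjusted p = 0.277). Against WT it was at 0.09 (-0.05 to 0.23) in SRG3 cKO and -0.09 (-0.23 to 0.04) in RORγt KO cells.

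The ligand chains are products of dendritic cells and macrophages more than of T cells. Il12a, the chain of IL-12 that IL-23 does not share, had levels of 6.50 to 6.72 over the 9 arrays. Il23a, the chain particular to IL-23, had levels of 6.63 to 7.03, and all of these were under the median of all values. Il12a was at -0.08 (-0.19 to 0.02) in SRG3 cKO and 0.02 (-0.08 to 0.13) in RORγt KO cells against WT, and -0.11 (-0.21 to -0.00, limma adjusted p = 0.432) between the knockouts, where the arrays did not overlap. Il23a was at 6.95, 6.63 and 6.72 in WT, 6.98, 6.99 and 7.03 in SRG3 cKO and 6.96, 7.01 and 6.77 in RORγt KO arrays. The SRG3 cKO arrays lay just above all WT arrays (0.24, 0.05 to 0.43, limma adjusted p = 0.334), with WT array 1 close to them, and RORγt KO cells were at 0.15 (-0.04 to 0.34). Ebi3, a chain of IL-27 and IL-35, was brighter, at 8.32, 8.14 and 7.98 in WT, 8.18, 8.02 and 8.07 in SRG3 cKO and 8.10, 7.90 and 7.91 in RORγt KO arrays, again highest in array 1 of each group. It was at -0.06 (-0.25 to 0.14) in SRG3 cKO and -0.18 (-0.37 to 0.02) in RORγt KO cells against WT, and did not pass. Its dimmer second probe set (6.65 to 6.97) was at 0.10 (-0.10 to 0.30) in RORγt KO cells, the opposite sign.

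Over the 9 genes, 1 passed in SRG3 cKO against WT, a fall (background 0.523% of all genes tested, 0.243% for falls). In RORγt KO against WT 3 passed, 1 rise and 2 falls (background 1.04%, with 0.694% for rises and 0.343% for falls). In SRG3 cKO against RORγt KO cells 3 passed, 2 higher and 1 lower (background 1.28%, with 0.595% higher and 0.681% lower). The 3 were Il23r, Il12rb1 and Il12rb2 both times, and these comparisons share the RORγt KO arrays. The arrays of the groups did not overlap for 3, 3 and 5 of the 9 genes in the same order, where 13.6%, 14.3% and 14.6% of all genes tested showed no overlap. The median size of change was 0.11, 0.15 and 0.18, against 0.05 over all genes tested in each comparison.

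**Figure D2:**
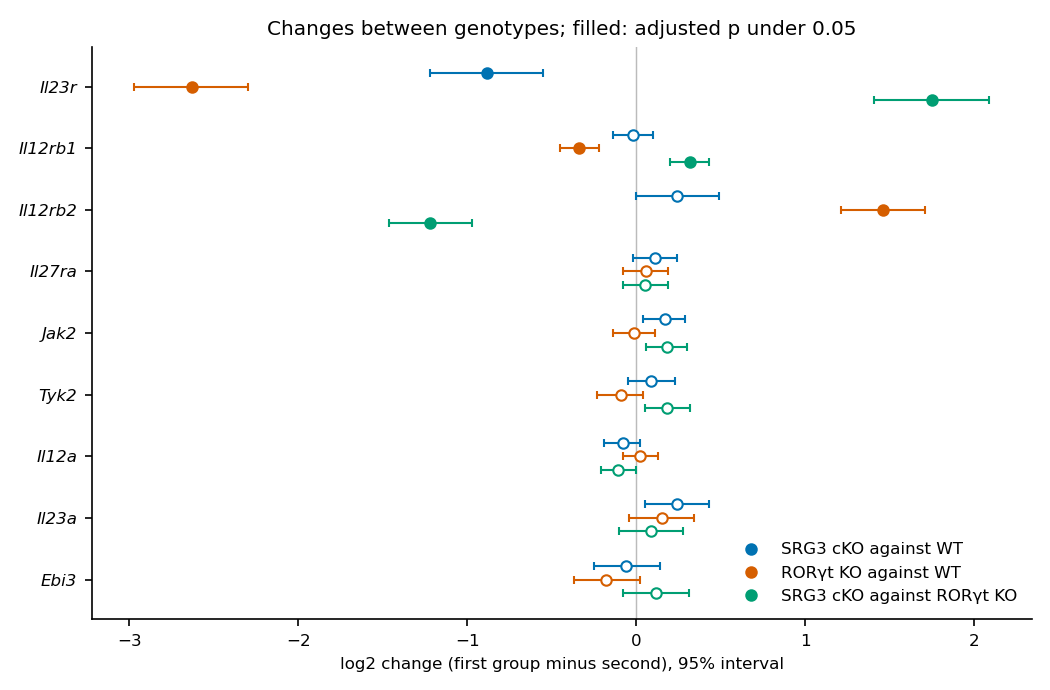
Log2 change of each gene (horizontal axis, first group minus second) with its 95% interval in the 3 comparisons; filled points passed an adjusted p of 0.05 over all genes and open points did not. Il23r and Il12rb2 lie far from 0 on opposite sides in RORγt KO against WT cells, and the estimates of the kinase and ligand genes lie within 0.3 of 0.

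The genes around the pair were read in the same way. The 5 nearest measured protein-coding genes on either side were Vmn1r37, Vmn1r38, Vmn1r39, Gng12 and Serbp1 before Il12rb2, and Rpia, Eif2ak3, Tex37, Foxi3 and Thnsl2 after Il23r. Of these 10, 0 passed in any of the 3 comparisons by limma (smallest adjusted p = 0.594, 0.505 and 0.526, and 0 at an unadjusted p under 0.05 in each). Their log2 differences ran from -0.17 to 0.17. Serbp1, an RNA-binding protein gene whose model overlaps the end of Il12rb2, was at 12.31, 12.42 and 12.43 in WT, 12.30, 12.35 and 12.36 in SRG3 cKO and 12.33, 12.28 and 12.37 in RORγt KO arrays. It was at -0.06 in RORγt KO cells against WT (-0.16 to 0.04), while its neighbour Il12rb2 rose by 1.46. Rpia, the nearest measured gene beyond Il23r and an enzyme of the pentose phosphate pathway, was at -0.07 there (-0.23 to 0.09) and at -0.03 in SRG3 cKO cells (-0.19 to 0.13). The vomeronasal receptor genes were dim, at 3.28 to 4.85, where the array may show little specific signal.

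**Figure D3:**
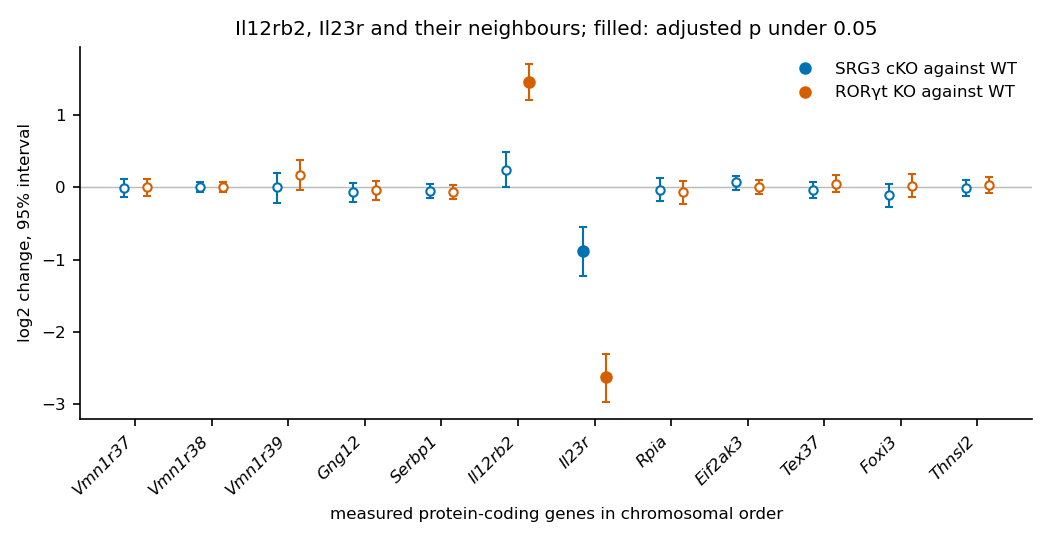
Log2 change with 95% interval (vertical axis) of Il12rb2, Il23r and the 5 nearest measured protein-coding genes on either side, in chromosomal order and without true spacing, in SRG3 cKO and RORγt KO cells against WT; filled points passed an adjusted p of 0.05. Il12rb2 in RORγt KO cells and Il23r in both knockouts have filled points, and the estimates of the 10 neighbours lie between -0.11 and 0.17.

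Likeness to a gene was measured as the root mean square difference of log2 values over the 9 arrays, after subtracting each gene's mean. For Il23r, whose own values have a root mean square of 1.11, the closest were Il17f (0.36), Il1r1 (0.56), Furin (0.58), Il17a (0.67) and the RNA gene A430107P09Rik (0.68). Il17f and Il17a encode the hallmark Th17 cytokines, Il1r1 the receptor for IL-1, and Furin a protease that activates pro-proteins. Of these, Il17f had the same 3 steps, at 12.38, 12.05 and 12.68 in WT, 11.53, 11.46 and 11.61 in SRG3 cKO and 10.49, 10.48 and 10.25 in RORγt KO arrays, and so did Il17a. Il17f fell in SRG3 cKO cells by 0.84 (SE 0.14, limma adjusted p = 0.0361, lost in 8 of 9 fits without 1 array) and in RORγt KO cells it was at -1.97 (SE 0.14, limma adjusted p = 0.000213). Il1r1, Furin and A430107P09Rik fell in RORγt KO cells (-1.40, -1.36 and -1.03), and in SRG3 cKO cells they were at -0.03 (-0.22 to 0.17), 0.10 (-0.08 to 0.28) and 0.04 (-0.11 to 0.19) against WT. Directly compared, these 3 were higher in SRG3 cKO than in RORγt KO cells, by 1.37, 1.46 and 1.08.

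For Il12rb2, whose values have a root mean square of 0.65, the closest were Il7r (0.23), Mt2 (0.24), Mctp2 (0.26), Neb (0.26) and Trav12-2 (0.27). Il7r, the receptor chain for the T cell survival factor IL-7, was at 10.35, 10.42 and 10.16 in RORγt KO arrays against 9.54, 9.20 and 9.34 in WT and 9.28, 9.26 and 9.24 in SRG3 cKO arrays. It rose by 0.95 in RORγt KO cells (SE 0.09, limma adjusted p = 0.00135). Trav12-2, a T cell receptor alpha variable segment, rose by 0.88 (SE 0.06, limma adjusted p = 0.00023), Neb, for the muscle protein nebulin, by 0.93 (SE 0.08, limma adjusted p = 0.000788) and Mctp2 by 0.91 (SE 0.15, limma adjusted p = 0.0299, lost in 5 of 9 fits without 1 array). Mt2, for a metallothionein, was at 1.04 (0.57 to 1.51, limma adjusted p = 0.0596) with WT array 1 at 11.05 and the other WT arrays at 10.25 and 10.32. Of the 5, 0 passed in SRG3 cKO against WT cells, where the smallest limma adjusted p was 0.645 for Trav12-2. The genes were picked for this likeness, so it is a description.

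**Figure D4:**
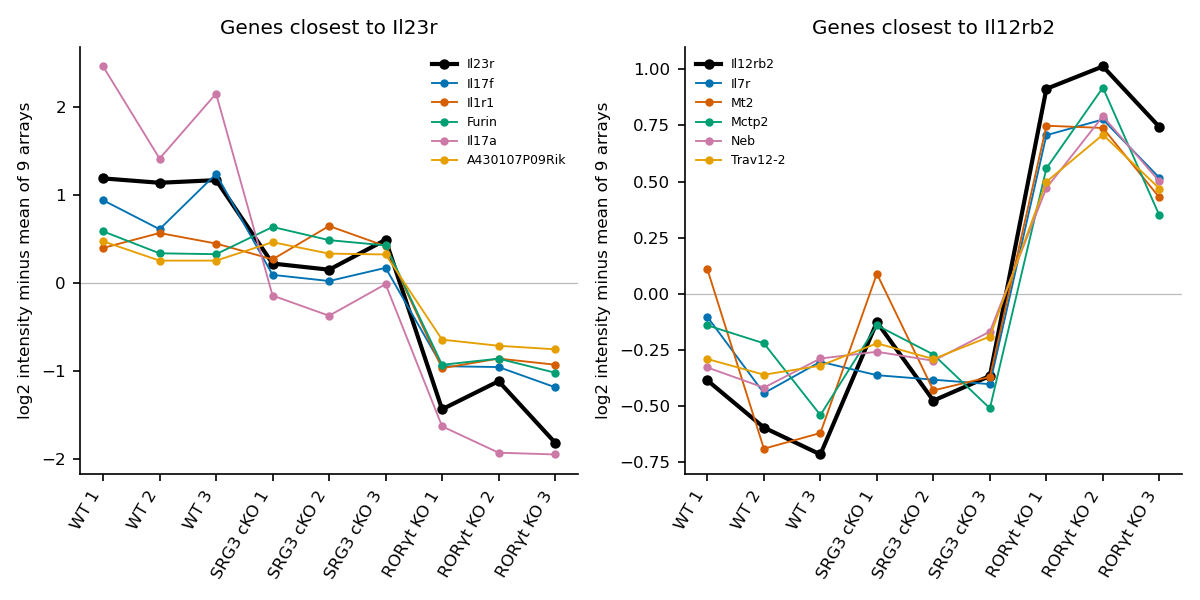
Log2 intensity minus the mean of the 9 arrays (vertical axis) for Il23r (left, thick black line) and Il12rb2 (right) and the 5 genes closest to each; points are the 9 arrays in order of genotype, and lines only join the points of a gene. Il17f and Il17a step down at both knockouts with Il23r, while Il1r1, Furin and A430107P09Rik step down at RORγt KO cells, and all 5 genes on the right are high in the 3 RORγt KO arrays.

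The rest of the pathway was read through 7 lists with 81 genes analysed here. Of the 81, 5 passed in SRG3 cKO against WT cells (2 higher, 3 lower), 15 in RORγt KO against WT cells (7 higher, 8 lower) and 14 in SRG3 cKO against RORγt KO cells (9 higher, 5 lower). Over all genes tested, 0.523%, 1.04% and 1.28% passed in these comparisons, which is also the background for each list below. The median change over the 81 was 0.03, 0.06 and -0.01, against -0.01, -0.00 and -0.00 over all genes. The lists hold genes known from Th17 biology and from earlier results of these arrays, so their counts are descriptions.

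Of 8 other ligand genes of the family, 0 passed by limma in either knockout against WT (3 and 1 unadjusted, in the SRG3 and RORγt knockouts), and 1, Lif, was higher in SRG3 cKO than in RORγt KO cells (0.54, SE 0.10, limma adjusted p = 0.042), which passed in 1 of 9 fits without 1 array. Il10 was at 0.65 in RORγt KO against WT cells (0.28 to 1.02, limma adjusted p = 0.127). It was at -0.76 in SRG3 cKO against RORγt KO cells (-1.13 to -0.40, limma adjusted p = 0.0687). Neither passed in the main fit, and both did with the replicate block. Il12b, the chain shared by IL-12 and IL-23, was dim, at 6.38 to 6.57 over the 9 arrays, and at -0.03 (-0.14 to 0.08) and -0.04 (-0.15 to 0.07) in the SRG3 and RORγt knockouts against WT. Il27, the other chain of IL-27, was at 8.57 to 8.82, with 0.04 (-0.11 to 0.18) and 0.10 (-0.04 to 0.24). With Il12a, Il23a and Ebi3, 5 ligand genes of these 3 cytokines were thus measured and 0 passed.

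Of 8 other receptor genes analysed here, 2 rose in RORγt KO cells and 0 changed in SRG3 cKO cells by limma (6 and 0 unadjusted). Il10ra, the ligand-binding IL-10 receptor chain, was at 8.48, 8.36 and 8.34 in RORγt KO against 7.82, 7.55 and 7.20 in WT arrays (0.87, SE 0.13, limma adjusted p = 0.0185, lost in 3 of 9 fits without 1 array). Il21r, the receptor chain for IL-21, rose by 0.35 (SE 0.05, limma adjusted p = 0.0202, lost in 4 of 9). Between the knockouts the same 2 passed by limma (4 unadjusted), both lower in SRG3 cKO cells. Il10ra was at -0.67 (limma adjusted p = 0.0419, lost in 7 of 9) and Il21r at -0.47 (limma adjusted p = 0.0027, lost in 0 of 9). Il6st, the gp130 chain used by IL-6 and IL-27, was at 0.10 (-0.01 to 0.20) in SRG3 cKO and 0.15 (0.05 to 0.26, limma adjusted p = 0.221) in RORγt KO cells.

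Of 7 other Janus kinase and STAT genes analysed here, 0 passed by limma in the 3 comparisons (3, 3 and 0 unadjusted). With the replicate block Stat5b passed in SRG3 cKO against WT cells. Jak1 was at 0.06 (-0.05 to 0.16) and 0.07 (-0.04 to 0.17) in the SRG3 and RORγt knockouts. Stat4, which carries the IL-12 signal, was at 11.07, 10.89 and 10.73 in WT, 11.20, 11.21 and 11.15 in SRG3 cKO and 11.13, 11.36 and 11.13 in RORγt KO arrays. Both knockouts lay above every WT array, at 0.29 (0.10 to 0.49, limma adjusted p = 0.249) and 0.32 (0.12 to 0.51, limma adjusted p = 0.17), and neither passed. Stat3, which carries the IL-23 and IL-6 signals, was at 0.08 (-0.06 to 0.23) and 0.17 (0.02 to 0.31, limma adjusted p = 0.324). Of 19 feedback inhibitor and phosphatase genes, 1 changed by limma (4, 7 and 6 unadjusted in the 3 comparisons). This was Socs3, which blocks signals through gp130 and restrains STAT3. It was at 8.88, 9.28 and 8.96 in RORγt KO arrays against 8.46 to 8.57 in WT arrays (0.54, SE 0.09, limma adjusted p = 0.0317, lost in 7 of 9 fits without 1 array). Socs2 was at -0.60 in SRG3 cKO against WT cells (-0.92 to -0.28, limma adjusted p = 0.143). Its arrays did not overlap there, and it did not pass.

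**Figure D5:**
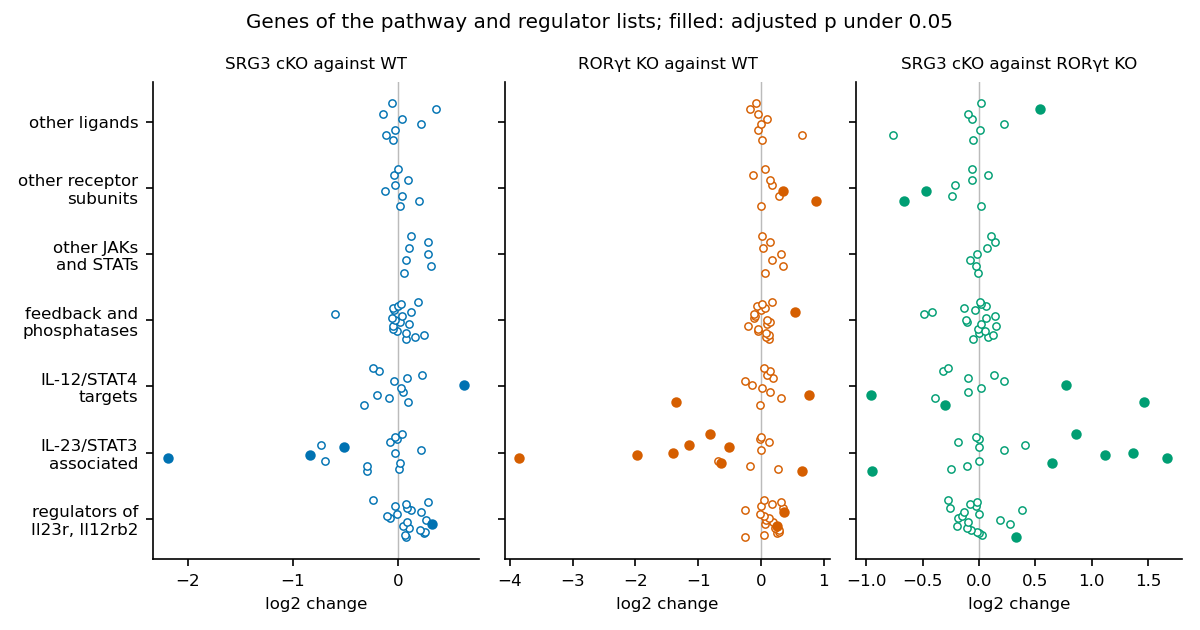
Log2 change (horizontal axis, scaled separately in each panel) of every measured gene of the 7 lists in the 3 comparisons; filled points passed an adjusted p of 0.05 over all genes. Genes associated with IL-23 and STAT3 in Th17 cells hold 3 of 5, 8 of 15 and 6 of 14 filled points in the 3 comparisons, and the kinase and STAT genes have none.

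Of the genes that IL-12 and STAT4 are known to induce in Th1 cells, 12 were measured, and 1 rose and 1 fell in RORγt KO cells. Gzmb, the granzyme B gene, rose (0.77, SE 0.15, limma adjusted p = 0.05 after rounding, just under the threshold, and lost in 8 of 9 fits without 1 array) and Furin fell (-1.36, SE 0.08, limma adjusted p = 0.000143). Ifng, the Th1 cytokine gene, stood at 6.36 to 6.42 in RORγt KO and 6.36 to 6.40 in WT arrays, under the median of all values, in cultures that held antibody against IFN-γ. Tbx21, which encodes the Th1 factor T-bet, was at 0.04 (-0.15 to 0.22). In SRG3 cKO cells 1 gene rose against WT, the IL-18 receptor chain gene Il18r1 (0.63, SE 0.06, limma adjusted p = 0.00375), and 0 fell. With the replicate block Cxcr3 also passed, as a fall: it was at -0.32 against WT, with a limma adjusted p = 0.0525 without the block. Between the knockouts Il18r1 (0.77) and Furin (1.46) were higher in SRG3 cKO cells and Gzmb (-0.96, lost in 2 of 9 fits without 1 array) and the chemokine receptor gene Cxcr3 (-0.30, lost in 8 of 9) lower, so that the count of 4 ran from 2 to 4 without 1 array. The median change over the 12 was -0.01, 0.07 and -0.10 in the 3 comparisons.

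Of 15 genes associated with IL-23 and STAT3 in Th17 cells, 7 fell and 1 rose in RORγt KO cells. The falls were those of Il17a, Il17f, Il1r1, Il9 (-1.14), Tnf (-0.82), the chemokine receptor gene Ccr6 (-0.63) and Il22 (-0.51), and the rise that of Ahr (0.66), the aryl hydrocarbon receptor gene. Without 1 array the count of 8 ran from 6 to 9, with Il22 lost in 4 of 9 fits and Il9 in 3 of 9. Il22 stood at 3.15 to 3.83 in RORγt KO and WT arrays, among the dimmest probe sets (percentile 0.585). In SRG3 cKO cells 3 fell, Il17a, Il17f and Il22, and 0 rose. With the replicate number as a block Csf2 and Il9 passed as well, which made 5. Without 1 array the count in SRG3 cKO cells was 1 to 2, with Il17a past the threshold in all 9 fits, Il17f in 1 and Il22 in 4. Il17a, the largest fall in both knockouts in this list, was at 8.53, 8.30 and 8.66 in SRG3 cKO and 7.04, 6.74 and 6.72 in RORγt KO arrays against 11.14, 10.09 and 10.83 in WT arrays. Between the knockouts 5 were higher in SRG3 cKO cells (Il17a, Il17f, Il1r1, Tnf and Ccr6) and 1, Ahr, lower.

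Of 20 genes for factors reported to act on Il23r or Il12rb2, 2 rose in RORγt KO cells, 1 rose in SRG3 cKO cells and 0 fell in either. Rora, a second ROR receptor of Th17 cells, rose by 0.36 (SE 0.07, limma adjusted p = 0.05 after rounding, just under the threshold, lost in 7 of 9 fits without 1 array), and Hif1a, the hypoxia factor gene, by 0.26 (SE 0.05, limma adjusted p = 0.0421, lost in 8 of 9). Ikzf3, which encodes Aiolos, rose in SRG3 cKO cells (0.33, SE 0.06, limma adjusted p = 0.0488), a call lost in all 9 fits without 1 array and with the replicate block (adjusted p = 0.0661), where Irf4 and Ets1 passed instead. Batf was higher in SRG3 cKO than in RORγt KO cells (0.33, SE 0.06, limma adjusted p = 0.0427, lost in 8 of 9). Foxo1, a repressor of Il23r, was at 0.29 (0.15 to 0.42, limma adjusted p = 0.0707) in RORγt KO and 0.21 (0.08 to 0.35, limma adjusted p = 0.221) in SRG3 cKO cells, and the kinase gene Sgk1, which acts on FOXO1, was at 0.00 (-0.13 to 0.13) and -0.03 (-0.16 to 0.10). Runx3, a partner of T-bet, was at 0.35 (0.17 to 0.52, limma adjusted p = 0.0806) in RORγt KO cells. Runx1 (-0.25, -0.43 to -0.08, limma adjusted p = 0.226) and Batf (-0.25, -0.39 to -0.11, limma adjusted p = 0.131) lay below every WT array there, and neither passed. With the replicate block Foxo1, Runx3, Ets1 and Runx1 passed in RORγt KO against WT cells as well, Runx1 as a fall.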

How the data were processed

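RNA of T cells cultured under Th17 conditions (3 genotypes, 3 arrays each) was measured on 9 GeneChip arrays (41345 probe sets per array). All values are log2 probe set intensities as deposited by the authors in the series matrix; the background correction, probe summary and normalization are not given in the sources used here. The quartiles of all values were 6.12 and 8.23, and no pair of arrays held identical values (0). A single gene symbol was given for 23521 probe sets, more than 1 for 1814, and none for 16010; symbols were updated by gene ID (23328 matched) with RefSeq's GRCm38.p6 table, and each of 22180 genes was represented by its brightest probe set on average. That table also gave the order of genes on the chromosome, and promoter sequences came from RefSeq (GRCm38.p6; 6 of the 9 genes had an entry).

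Groups were compared with limma 3.58.1 (R 4.3.3), lmFit and eBayes on all 9 arrays, with Benjamini-Hochberg adjusted p-values over all genes; the procedure was tested on simulated data. The 9 genes and the lists were chosen with earlier results of these data known. The rule for naming genes was all 9 members, list genes past the threshold in any comparison plus 6 set names, the 5 measured neighbours on each side of the pair, and the 5 genes closest to Il23r and to Il12rb2. Others, Ifng, Tbx21, Foxo1, Sgk1, Runx3, Runx1 and Socs2, were named after their values were seen. So were Stat5b, Irf4, Ets1, Csf2, Bcl3, Il10 and Il21, which passed with the replicate block and not in the main fit. Deviations of SRG3 cKO and WT arrays with the same replicate number correlated at 0.287, 0.186 and 0.116. The numbers may thus pair the arrays there, from the data and not from the labels. For RORγt KO and WT (0.215, -0.00527 and 0.186) and for the knockouts (0.223, -0.00544 and 0.137) they were not taken as pairs. The main fit, which gave the calls above, used no pairs in any comparison, and fits with the replicate number as a block are alternatives. With the block in 9 arrays, Il23r in SRG3 cKO against WT cells did not pass (limma adjusted p = 0.0552), and with the block in the 6 arrays compared it did (0.0427). Alternatives changed the scaling, the filter on dim genes, the choice of probe sets, the eBayes options, the array weights and which arrays were fitted (6 or all 9, each also with a replicate block, and with each array left out), and added a minimum change of 1.5-fold. The number of arrays limits the precision.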

Additional observations from a re-analysis of the deposited data

How the results depend on the processing

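Il23r and Il12rb2 in RORγt KO against WT cells and between the knockouts kept their direction and passed in all 22 alternatives, with changes of -2.80 to -2.45 and 1.57 to 1.92 for Il23r and 1.39 to 1.55 and -1.31 to -1.14 for Il12rb2. In SRG3 cKO against WT cells the count of the 9 genes past the threshold went from 1 to 0 with all probe sets in the fit and with the replicate block in the 9 arrays, and was 0 to 1 over the fits without 1 array. In RORγt KO against WT cells and between the knockouts that count was 2 to 3 over the fits without 1 array and over the other settings, and the genes that always passed were Il23r and Il12rb2. Over the 588 values of the 9 genes under an alternative, 556 kept direction and side of the threshold, 24 lost a call, 0 gained one and 8 turned sign, all 8 in differences that had not passed. Most of the 588 values belong to differences that had not passed and so had no call to lose. All 24 losses were in Il23r in SRG3 cKO against WT cells, which passed in 13 of 22 alternatives, and in Il12rb1. Il12rb1 passed in 15 of 22 in RORγt KO against WT cells and in 14 of 22 between the knockouts. The sign turned for Jak2 in RORγt KO cells with quantile normalization (0.00) and in the fits without 1 array (-0.07 to 0.02), and for Ebi3 between the knockouts with the mean of its probe sets (-0.00). Without 1 array it also turned for Ebi3 in SRG3 cKO (-0.14 to 0.03), Il12a in RORγt KO (-0.00 to 0.06) and Il27ra between the knockouts (-0.01 to 0.08). With the replicate block Il23r in SRG3 cKO cells had an adjusted p = 0.0552 in 9 arrays and 0.0427 in 6. The block changed no other call of the 9 genes in the fit of 9 arrays. In the fit of 6 arrays Il12rb1 lost its calls with and without the block. Quantile normalization or median centring moved the median of all genes by under 0.1. For the lists, the replicate block moved the count in RORγt KO against WT cells from 2 to 6 for the regulators and from 0 to 1 (Il10) for the ligands, and between the knockouts from 1 to 3 for the ligands and from 1 to 2 for the regulators. For the genes associated with IL-23 and STAT3 it moved from 8 to 10 in RORγt KO against WT cells, with Csf2 and Bcl3 added, and from 6 to 8 between the knockouts, with Il21 and Bcl3 added. In SRG3 cKO against WT cells the block moved it from 3 to 5, that of the IL-12 and STAT4 targets from 1 to 2, of the regulators from 1 to 2 and of the kinases and STAT factors from 0 to 1. The filter above the median left no value for Il12a and Il23a. The cause of these losses was not tested.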
